A study of Mus musculus with 5 samples.

Results

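Fn1, Lox, Timp2, Bsg, Ddr1 and Ece1 encode glycoproteins, enzymes and receptors that build and reshape the extracellular matrix or act at the cell surface, and had RNA intervals listed as enriched with Flag-tagged SAMD4 in mouse osteoblasts. They were selected on measured values, since a gene can be here only if the deposited list holds an interval with more reads in the Flag-SAMD4 immunoprecipitation (IP) than in the IgG control, and collagen chain genes were left out by definition. The 6 genes hold 7 of the 673 intervals, 2 for Ece1 and 1 for each other gene, among 753 gene names. The cells were osteoblasts of Samd4PB/PB mice on the FVB background, in which a piggyBac transposon disrupts Samd4, taken from calvaria at postnatal days 5 to 7, immortalised with SV40 and made to express Flag-SAMD4 from a lentivirus. IP and IgG came from the same kind of cells, so both share the Samd4 disruption, the immortalisation and the lentiviral Flag-SAMD4. The series holds 2 libraries of the IP with an antibody to Flag, 2 of the IgG control and 1 of input RNA. The antibody field of the IgG libraries also reads Flag, whereas their titles and sources read IgG, and they were taken as IgG. Each interval has 1 number of reads for IP and 1 for IgG, so no replicate spread could be computed, and the input was not analysed here. Limits in parentheses are at 95% and cover counting error only, and reads copied by PCR are not independent molecules.

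The extracellular matrix of bone is a collagen scaffold that osteoblasts secrete, organise and later mineralise. Fibronectin, the product of Fn1, is laid down early and forms fibrils on which collagen assembles, and lysyl oxidase, the product of Lox, oxidises lysines of collagen and elastin so that the fibres become cross-linked. Secreted and membrane-bound proteases then reshape this scaffold, inhibitors such as TIMP2 hold them back, and receptors report the state of the matrix to the cell. SAMD4 (Smaug in flies) is an RNA-binding protein that acts on mRNA after transcription.

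The listed intervals held a median of 74 IP reads and 6 IgG reads, and 97 of them had 0 IgG reads. Library depth was not known, so IP and IgG reads were set side by side as counted. The deposited p-values are given back with IgG reads multiplied by 1.64, and every ratio printed as counted would be lower by that factor. The list was restricted to intervals richer in IP, with a lowest ratio of 2.47 where IgG reads were present and a lowest count of 15 IP reads where they were absent. Ratios of the genes described here are therefore descriptions of what selected them and carry no test. As a check of the cell type, Col1a1 alone of 11 osteoblast markers had a listed interval, and 0 of 20 markers of chondrocytes, macrophages and osteoclasts, endothelial cells, adipocytes and muscle had one. A list of enriched intervals does not show which genes were expressed.

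The deepest intervals belonged to the enzyme that cross-links collagen and to fibronectin. Lox had 895 reads in the Flag-SAMD4 IP (837 to 956, exact Poisson limits) and 69 in IgG (53.7 to 87.3), a ratio of 12.97 (10.1 to 16.8). Fn1 had 692 reads in the Flag-SAMD4 IP (641 to 746) and 124 in IgG (103 to 148), a ratio of 5.58 (4.60 to 6.81). Fn1 thus had fewer IP reads and more IgG reads than Lox, and the counting intervals of their ratios did not overlap. By IP reads Lox held rank 43 and Fn1 rank 49 of 673 intervals. By fold, with 0 IgG reads taken as a floor of 3, they held ranks 228 and 470. Lox thus lay above the list median of 8.33 and Fn1 below it, and both ranked lower by fold than by IP reads.

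Both intervals lie at the start of their gene. That of Lox lies on chromosome 18 of mm9 from 52688239 to 52689387, on the minus strand. It is 1149 bases long and takes in the whole first exon of the RefSeq transcript NM_010728, with 379 bases of 5′ UTR and 613 coding bases, 132 bases of the first intron and 25 bases upstream of the annotated start. That of Fn1 lies on chromosome 1 from 71699019 to 71699791, also on the minus strand. Its 773 bases start 17 bases inside NM_010233, upstream of the start of the Ensembl and UCSC transcripts, and hold 235 bases of 5′ UTR, 151 coding bases of exon 1 and 387 bases of intron 1. In all 19 Fn1 transcripts and all 5 Lox transcripts of the table the interval held 5′ UTR, coding and intron bases. Genes on the opposite strand overlap both places. For Fn1 these are Apol7d and Gm15456, with up to 244 exon bases in the interval, and AK049041, with 61. For Lox it is AK084265, with 86. No strand is stated for the counting, so reads of the 2 strands cannot be told apart.

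**Figure D1:**
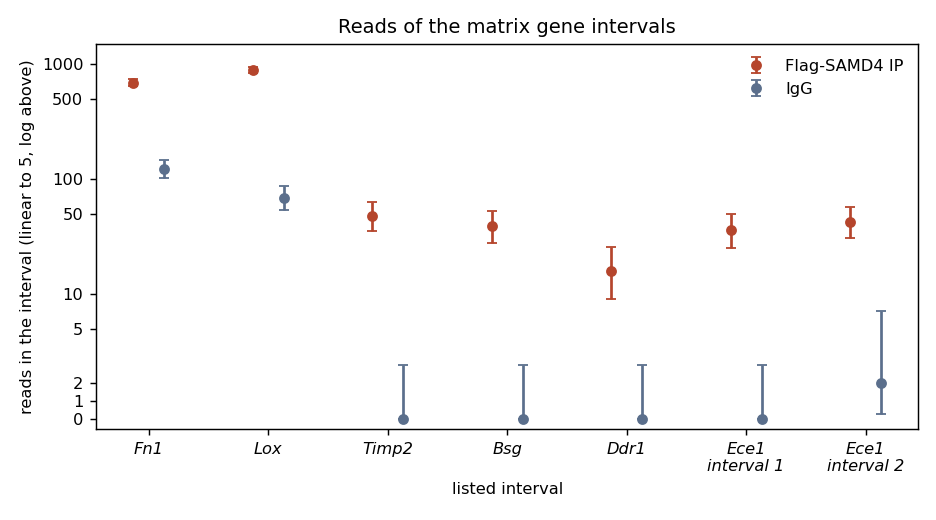
Reads in the Flag-SAMD4 IP (red) and in IgG (blue) for the 7 intervals, on an axis that is linear up to 5 reads and logarithmic above. Bars are exact 95% Poisson intervals, and for 0 IgG reads they reach up to the floor of 3 reads. Lox with 895 and Fn1 with 692 IP reads stand apart from the other intervals, which hold 16 to 48.

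Timp2 and Bsg, with opposite roles toward matrix proteases, had IP reads and no IgG reads. TIMP2 inhibits matrix metalloproteinases, and basigin, the product of Bsg (also called EMMPRIN or CD147), is a membrane glycoprotein known to induce their production in neighbouring cells. Timp2 had 48 reads in the Flag-SAMD4 IP (35.4 to 63.6) and 0 in IgG, which is at least 16-fold against a floor of 3 IgG reads if both were sequenced to the same depth. Bsg had 39 reads in the Flag-SAMD4 IP (27.7 to 53.3) and 0 in IgG, at least 13-fold. These bounds take the IP reads as counted. With IgG reads scaled by 1.64, which gives back the p-values of the table, they were 9.78 for Timp2 and 7.94 for Bsg, and with the 5.75 of the summed reads 2.78 and 2.26. With the counting error of all reads, the IP share was 100% with a lower Clopper-Pearson limit of 92.6% for Timp2 and 91.0% for Bsg, so the pair cannot be ordered.

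The Timp2 and Bsg intervals also lie near the start of the gene, but inside exon 1. The Timp2 interval, on chromosome 11 from 118216409 to 118216632 and on the minus strand, begins 93 bases after the start of NM_011594. Its 224 bases are all 5′ UTR in 3 of the 4 Timp2 transcripts of the table, and intron in the other one. The Bsg interval, on chromosome 10 from 79167237 to 79167329 and on the plus strand, begins 134 bases after the start of NM_009768. It is 93 bases long, with the last 26 bases of the 5′ UTR and the first 67 coding bases, and ends on the last base of exon 1 in all 6 Bsg transcripts. Per base the order differs from that by reads, since Bsg had 41.9 IP reads per 100 bases of interval and Timp2 had 21.4, against 77.9 for Lox and 89.5 for Fn1.

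**Figure D2:**
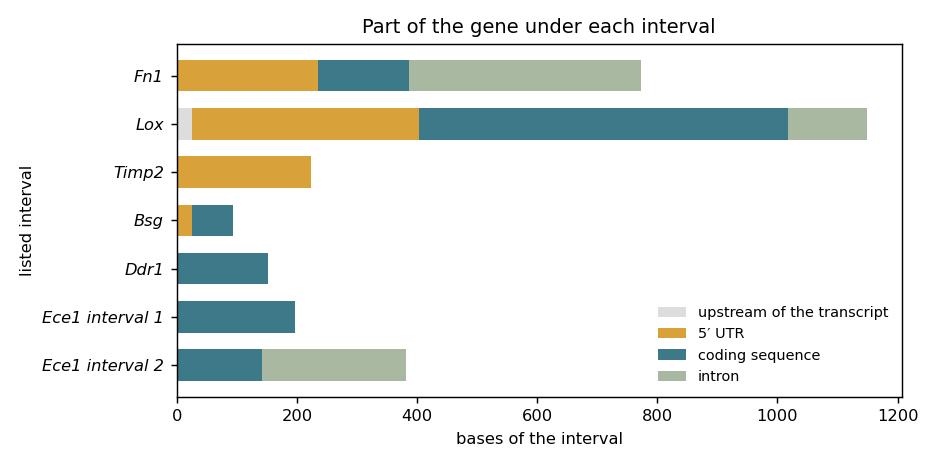
Bases of each interval that fall upstream of the transcript, in 5′ UTR, in coding sequence or in intron, in the RefSeq transcript with the most exon bases there (for Ece1 interval 1 the UCSC transcript paired with it). The Timp2 interval is 5′ UTR throughout, that of Ddr1 is coding throughout, and those of Fn1, Lox and Ece1 interval 2 run on into an intron.

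Ece1, the only gene of the 6 with several listed intervals, encodes endothelin-converting enzyme 1, a membrane metalloprotease that cuts big endothelin to its active form. Interval 1, nearer the 5′ end of the gene, had 36 reads in the Flag-SAMD4 IP (25.2 to 49.8) and 0 in IgG, at least 12-fold at equal depth (7.33 with the factor of 1.64 and 2.09 with 5.75). Interval 2, which follows 7056 bases downstream, had 43 reads in the Flag-SAMD4 IP (31.1 to 57.9) and 2 in IgG (0.242 to 7.23), a ratio of 21.5 (5.60 to 183). With 0.5 added to each count, the ratio at interval 1 was 4.20 times that at interval 2, with an interval of 0.195 to 90.2, so no change along the transcript was detectable at this depth. The order of the 2 intervals turns with the treatment of the 0, since the floor of 3 reads gives interval 1 the lower value. Summed, they held 79 IP and 2 IgG reads (ratio 39.5, 10.6 to 332). Any depth factor between IP and IgG is common to both intervals and leaves their comparison as it is.

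The Ece1 transcripts of the table start at several places, and each interval lies within 500 bases of such a start. Interval 1 lies on chromosome 4 from 137469683 to 137469879, on the plus strand, and starts on the first base of an exon. Its first 87 bases are exon in ENSMUST00000130407, and its other 110 bases lie past the end of that transcript. In uc008vjs.2, whose exon runs further, all 197 bases are coding. The table pairs interval 1 with those 2 transcripts alone, although 7 more Ece1 transcripts of the table span it. In 6 of these, NM_199307 among them, an intron takes the last 110 bases, and 3 of the 7 start 86 to 297 bases upstream of the interval. Interval 2, from 137476936 to 137477317, covers a coding exon of 142 bases of NM_199307 from its first base to its last and 240 bases of the intron that follows. It held coding bases in 7 of 8 transcripts and was wholly intron in the other one. The transcript uc008vjv.1 starts 232 bases upstream of interval 2. From the start of NM_199307, however, interval 1 lies 51531 bases away and interval 2 58784 bases, the latter after 57.1% of the gene.

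Ddr1 had the fewest reads, and its interval alone among these genes lay more than 500 bases from the nearest transcript start of its gene. DDR1 is a receptor tyrosine kinase that binds collagen. Ddr1 had 16 reads in the Flag-SAMD4 IP (9.15 to 26.0) and 0 in IgG, at least 5.33-fold at equal depth (3.26 with the factor of 1.64 and 0.928 with 5.75), and an IP share with a lower limit of 79.4%. It held rank 658 of 673 by IP reads, 1 read above the lowest count listed without IgG reads. Its interval, on chromosome 17 from 35825484 to 35825635 and on the minus strand, is exactly 1 coding exon of 152 bases, 15449 bases from the start of NM_007584 and after 68.4% of the gene. It was coding in 17 of the 18 Ddr1 transcripts and 3′ UTR in the other one. The nearest start among Ddr1 transcripts was 11862 bases upstream.

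Among the 7 intervals the reads separate Fn1 from some of the others and do little else. Of 21 pairs, the counting intervals of the ratio did not overlap in 4, those of Fn1 with Lox, Timp2, Bsg and Ece1 interval 1, and the Fn1 interval had the lower ratio each time. Its IP share was 84.8% (82.2% to 87.2%), and that of Lox 92.8% (91.0% to 94.4%). Ddr1 and Ece1 interval 2 could not be set apart from any other interval. At the ratio of Fn1, 16 IP reads go with 2.87 IgG reads, and at the ratio of Lox with 1.23, both under the floor of 3. For Timp2 the same ratios give 8.60 and 3.70 IgG reads, and for Bsg 6.99 and 3.01.

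Counts of 0 in IgG were most frequent among the shallowest intervals. Of the 7 intervals, 4 had 0 IgG reads and at least 15 IP reads, beside 14.4% of all listed intervals. These 4 are among the shallow ones. Between 15 and 50 IP reads, 30.9% of 223 listed intervals had 0 IgG reads, and 5 intervals of the 6 genes lie in this band. Between 101 and 1000 IP reads, where Lox and Fn1 lie, the share was 7.34% of 218. A ratio of at least 10, with 0 taken as 3, was found in 5 of the 7 (all but Fn1 and Ddr1), beside 44.7% of all listed intervals. With IgG reads scaled by 1.64 it was found in 1 (Ece1 interval 2), and with the 5.75 of the summed reads in 0. The genes were chosen from this same contrast, so nothing is read from these counts.

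**Figure D3:**
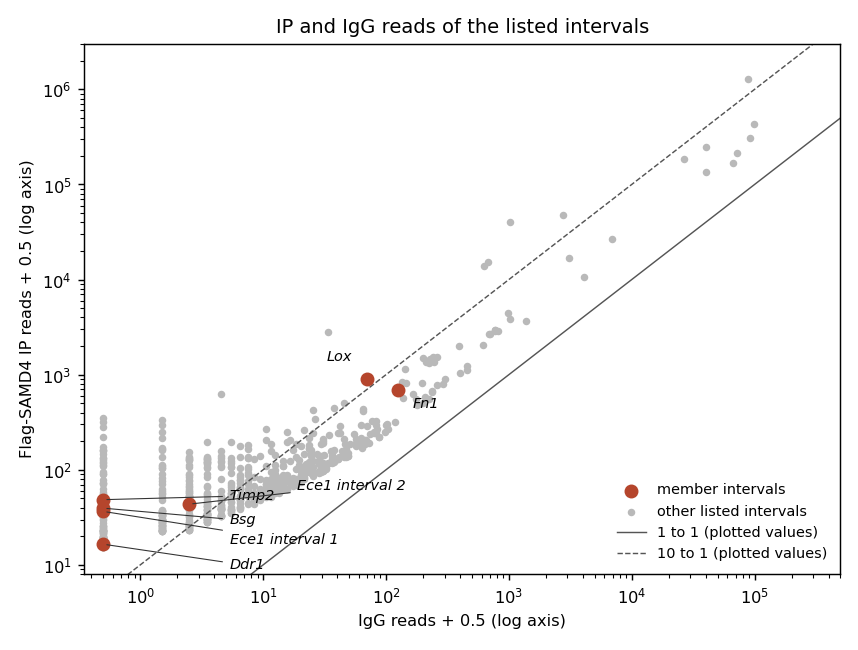
IP reads against IgG reads of all 673 listed intervals, both with 0.5 added and on log axes, with the 7 intervals of the 6 genes in red. Lines mark 1 and 10 IP reads for each IgG read in the plotted values. Lox lies just above the line of 10, Fn1 below it, and Timp2, Bsg, Ddr1 and Ece1 interval 1 in the column of 0 IgG reads.

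Place in the gene was not part of how the 6 genes were chosen. Of their 7 intervals, 6 lay within 500 bases of the start of a transcript of the gene, all but Ddr1, beside 75.3% of all listed intervals. A 5′ UTR was touched by 4, those of Fn1, Lox, Timp2 and Bsg, beside 55.3% of all listed intervals, and coding sequence by 6, all but Timp2, beside 72.8%. Starts were taken from all spanning transcripts, but 5′ UTR and coding bases only from transcripts paired with the interval. For Ece1 interval 1 the starts within 500 bases belong to unpaired transcripts, whose 5′ UTRs were not counted. An edge of the interval fell exactly on an exon edge in 4, those of Bsg, Ddr1 and both of Ece1, beside 43.2% of all listed intervals, and Ddr1 matched an exon at both ends, as did 44 of the 673. With 7 intervals these counts are too few to set the genes apart from the list. The intervals lie on 6 chromosomes.

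Other matrix genes without collagen chains had a higher median of IP and of IgG reads per interval, in intervals of a longer median length. Of 134 names in a list of matrix glycoproteins, proteoglycans, cross-linking and processing enzymes, remodelling genes and matrix receptors, 39 had a listed interval, the 6 genes included. Lamb1 and Lamb1-1 are 2 of these names for 1 interval. The other 33 names held 38 intervals with a median of 90.5 IP and 18 IgG reads and a median ratio of 4.65, against 8.33 over all listed intervals. None of the 38 had 0 IgG reads, and the 7 intervals of the 6 genes had a median of 43 IP and 0 IgG reads. The median length was 424 bases for the 38 and 224 for the 7, and reads per base were not compared between them. For the 7 intervals of the 6 genes the median ratio was 12.97, with 0 taken as the floor, and they were picked from this list with their values known. Timp2, Bsg, Ddr1 and Ece1 are also on the paper's own list of enriched genes, where every gene has 0 IgG reads. The difference from the 38 was thus built into the choice, and nothing is read from it.

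Among the cross-linking and processing enzymes, Lox was not alone at a high ratio. Loxl1, a lysyl oxidase relative that acts on elastin, had 249 reads in the Flag-SAMD4 IP and 15 in IgG (ratio 16.6, 9.87 to 30.1), an interval of 2259 bases that covers the start of the gene. The ratio of Loxl1 overlapped that of Lox within counting error. P4hb, which encodes protein disulfide isomerase, a subunit of the enzyme that hydroxylates collagen prolines, had 186 and 18 (ratio 10.3, 6.36 to 17.8), also at the start of the gene. Loxl2, another lysyl oxidase relative, had 183 and 62 in one interval (ratio 2.95, 2.20 to 4.0) and 142 and 45 in the other (ratio 3.16, 2.24 to 4.52), with no overlap with the ratio of Lox. Both Loxl2 intervals lie far inside the gene, at least 57629 bases from a start. Pcolce, an enhancer of procollagen processing, had 162 and 37 (ratio 4.38, 3.05 to 6.44).

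Among the glycoproteins, Fn1 had a higher ratio than Fbln2, Aebp1, Tnc and Lamb2, those among the 10 list genes with the most IP reads. Shallower ones lay above it, such as Igfbp7 at 6.58, Nid2 at 8.0, Fbln1 at 6.1 and an interval each of Fbn1 and Ltbp3. These stood at 27 (4.45 to 1105) for Fbn1 and 12.3 (3.91 to 62.5) for Ltbp3. The other intervals of Fbn1 and Ltbp3 gave 5.15 and 3.89. The limits of all these overlap those of Fn1, and the genes were looked up after the values were seen. Fbln2, which encodes fibulin 2, had 1244 reads in the Flag-SAMD4 IP and 454 in IgG in its deepest interval (ratio 2.74, 2.46 to 3.06), and its other intervals gave 2.79 and 2.73. That deepest interval is 2735 bases long, of which at most 504 lie in an Fbln2 transcript paired with it. For the interval at 2.79 it was 1135 of 2695 bases. Aebp1, a collagen-binding matrix protein, had 674 and 236 (ratio 2.86, 2.46 to 3.33), and Tnc, which encodes tenascin C, had 622 and 165 (ratio 3.77, 3.17 to 4.50). Lamb2, a laminin chain, had 237 and 74 (ratio 3.20, 2.46 to 4.22), with at most 2390 of 4303 bases in a paired Lamb2 transcript. Reads in the rest of these Fbln2 and Lamb2 intervals were not shown to come from those genes. None of the upper limits of Fbln2, Aebp1, Tnc and Lamb2 reached the 4.60 at the lower end for Fn1. Relatives and partners of the other genes were looked up after the values were seen. Timp3, a further inhibitor of matrix proteases, had 109 IP and 23 IgG reads (ratio 4.74, 3.0 to 7.79), and Mmp2, a gelatinase that TIMP2 helps to activate and also inhibits, had 100 and 30 (ratio 3.33, 2.20 to 5.19). Itga5 and Itgb1, the chains of the main fibronectin receptor, had 32 and 1 (ratio 32.0, 5.35 to 1303) and 26 and 2 (ratio 13, 3.26 to 113), with limits too wide to rank.

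**Figure D4:**
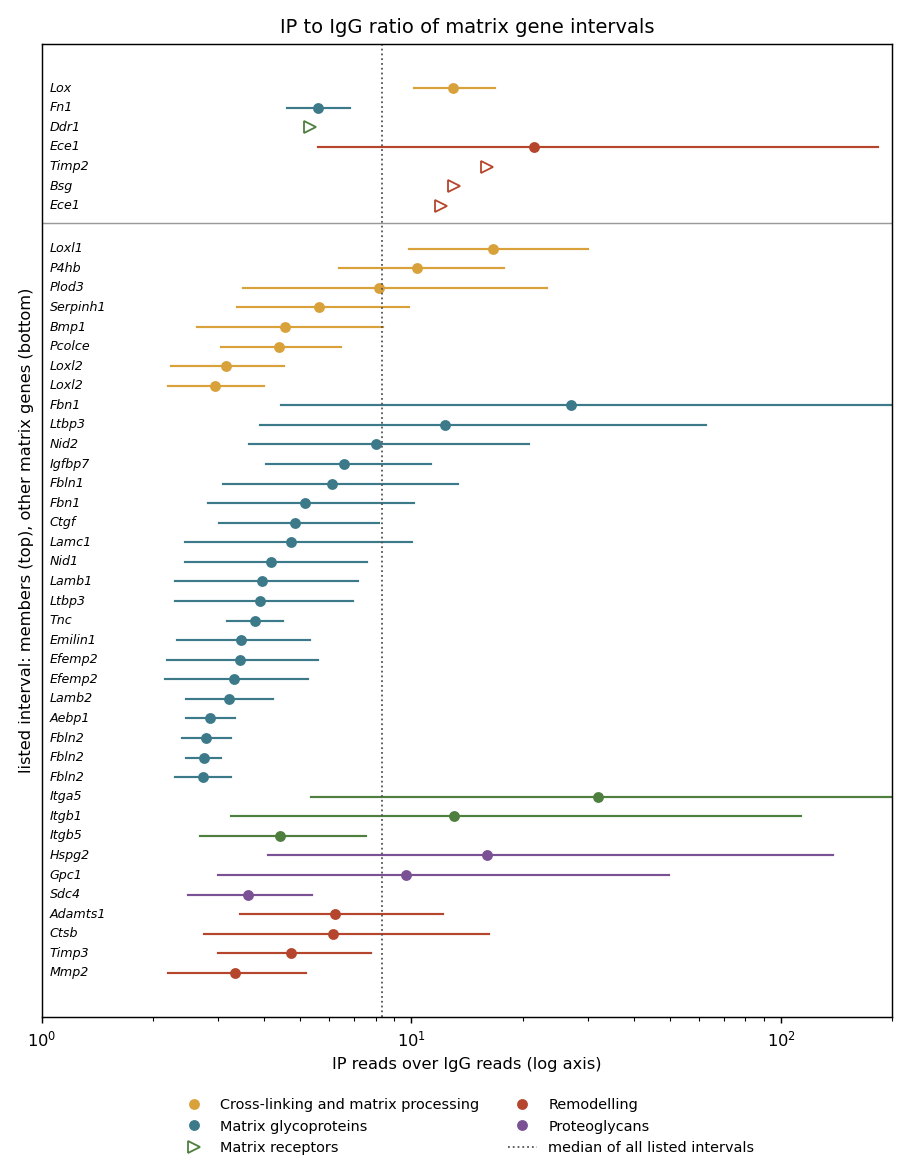
IP reads over IgG reads, on a log axis, for the intervals of the 6 genes (above the line) and of the other matrix genes (below it), coloured by class, with 95% counting intervals as bars. Open triangles are lower bounds for intervals with 0 IgG reads, bars that run past the edge of the axis are clipped there, and the dotted line is the median of all listed intervals, 8.33. Lox at 12.97 lies with Loxl1 at 16.6, and Fn1 at 5.58 lies above Fbln2, Aebp1 and Tnc and below the first Fbn1 interval at 27.

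By reads alone, the intervals most like the deepest one of each gene were, apart from Fn1 for Lox, of genes outside the matrix list. Likeness was taken as the distance in log2 of the 2 read numbers, with 0.5 added, over the 673 intervals, and was not computed for Ece1 interval 1. Nearest to Lox was 9330185C12Rik, with 898 IP and 70 IgG reads, and then Fn1 itself. Nearest to Fn1 were an interval named U1 with 831 and 134 and that of Rps3 and Snord15a with 569 and 138. Txndc11 with 45 and 0 and Fads1 with 53 and 0 came closest to Timp2. Hmgn1 and the interval of Caper and Rbm39 had the same numbers as Bsg, 39 and 0. Fkbp10 and Ptprf were among 3 intervals with those of Ece1 interval 2, 43 and 2. For Ddr1, 9 other intervals had 16 and 0, among them a pair of Tcf3.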

How the data were processed

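RNA immunoprecipitation with sequencing was done by the authors on Flag-SAMD4 osteoblasts. The submitters' processing notes name TopHat2 2.0.9 and the build mm9. How intervals were called, whether strand was used and how both libraries of a kind became 1 column: not given in the sources used here. Each line of the deposited table gives, for an interval and a transcript, a count of IP reads, a count of IgG reads and shared bases, and the authors' own p-value, q-value and fold, which were not used as results. From the p-value column of the deposited table only the factor on IgG reads was derived (1.64, which gave back 560 of 560 p-values). Members and lists were chosen with earlier results of these data known. Parts of genes were counted as bases shared by interval and feature, at 1 base or more. In 67 listed intervals some spanning transcripts of a named gene were not paired with the interval. Exact Poisson and Clopper-Pearson limits were computed with scipy 1.17.1 in Python 3.11.15. Only the Clopper-Pearson limits of the ratio of IP to IgG reads were tested on simulated data. No test of IP against IgG was made. Named genes were the 6, names sharing their intervals, the 10 of the fixed list with the most IP reads, and the 2 nearest intervals by reads. Timp3, Mmp2, Itga5, Itgb1, Igfbp7, Nid2 and Fbln1, and the list genes with several intervals (Fbn1, Ltbp3, Efemp2), were named after their values were seen. RefSeq (GRCm38.p6) held 6 of 6 symbols and 129 of 134 list names. No base sequence of mm9 was used.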

Additional observations from a re-analysis of the deposited data

How the results depend on the processing

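Depth moved the values most. With the factor of 1.64 on IgG reads that gives back the p-values of the table, the ratio was 3.41 for Fn1 and 7.93 for Lox, and the bounds were 9.78 for Timp2, 7.94 for Bsg, 3.26 for Ddr1 and 7.33 for Ece1 interval 1, and 1 of the 7 intervals kept a ratio of at least 10 (Ece1 interval 2). With IgG reads multiplied by 5.75, the ratio of all listed IP to IgG reads, 0 did, and the values of Fn1 and Ddr1 were 0.971 and 0.928. The 10 deepest intervals hold 93.7% of the listed IP reads, so 5.75 rests mostly on them. It was used as a strict alternative and is not a known depth. Counts of intervals with no IgG reads, of 5′ UTRs and of listed matrix genes stayed within 1.5 times under the alternatives tried. For Ece1 no value was to be had with at least 50 reads, without the deepest interval or with exons of paired RefSeq transcripts alone. Fewer than 2 intervals were then left. The RefSeq transcript NM_199307 spans Ece1 interval 1 but is not paired with it. No paired analysis was possible because each kind of library has 1 column, and for the same reason no replicate could be left out.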

Other observations

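All genes of the matrix list with several intervals other than Ece1, 5 in number, were read from the 5′ end of the gene, with 0.5 added to each count before ratios were compared. They were chosen after the values were seen. In Fbn1, which encodes fibrillin 1, the first interval had 27 IP and 1 IgG reads and the second 67 and 13, a ratio 3.67 times as high in the first (0.641 to 21.0). In Ltbp3, which encodes a binding protein of latent TGF-β, they had 37 and 3, and 70 and 18, 2.81 times as high in the first (0.839 to 9.42). In Fbln2, Efemp2 and Loxl2 the highest ratio was 1.02, 1.03 and 1.07 times the lowest. All 5 counting intervals include 1. Over the 38 intervals of matrix genes other than the 6, the median ratio was 5.61 in the 19 that touch a 5′ UTR and 4.18 in the 19 that do not, and over all listed intervals 10.6 in 372 and 6.33 in 301. Intervals that touch a 5′ UTR had a median of 59.5 IP reads over the whole list and the others 102, and the part of depth in the difference was not tested.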
